A study of Mus musculus with 8 samples.

Results

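Ribosome biogenesis and RNA polymerase I genes were measured in sorted mouse lung endothelial cells, from wild-type mice and from mice with a deletion of a respiratory complex III subunit. The set holds 42 genes, chosen by symbol from a count table of 43430 gene IDs, with earlier results of these data known. They encode core proteins of the small nucleolar ribonucleoproteins (snoRNPs), factors that process precursor ribosomal RNA, and polymerase I with its factors. All 42 symbols matched 1 gene ID each, and all 42 passed the filter on low counts, which left 12689 genes for testing.

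All mice were C57BL/6 and were sampled at postnatal day 15. One group of 4 libraries is labelled wild type (WT). The other group of 4 libraries (KO) came from mice with a conditional endothelial deletion of QPC, a complex III subunit that was read as the protein encoded by Uqcrq. Deletion was induced with tamoxifen between postnatal days 0 and 4, and the labels carry the same treatment note for both groups. Lung cells were sorted on CD31, a surface protein of endothelium. Which promoter drives the Cre recombinase is not stated in these sources. Nor do the labels tie libraries to separate mice, so p-values cover the spread between these samples only, which may be technical.

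Sequencing depth lay between 6407924 counts (WT replicate 3) and 13981329 counts (KO replicate 4). WT replicate 3 stood apart on the first principal component of all genes tested (28.3% of the variance) and KO replicate 1 on the second (23.1%). For some, not all, genes in which one of them lay far from the rest of its group, values are also given without it. Uqcrq was 24.5 to 31.5 CPM (TMM-normalised counts scaled to a common library size) in WT and 1.59 to 15.6 CPM in KO, with every KO library below every WT library and a log2 fold change of -1.42 (SE 0.53, edgeR adjusted p = 0.179). The deleted stretch of the gene is not stated in these sources, so reads from the rest of it can remain. Why Uqcrq reads remained in KO was not tested. The 8 endothelial markers summed to 13183 to 15470 CPM in WT and 11387 to 14801 CPM in KO, and 2 of them, Tek and Erg, were called lower in KO.

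Ribosomes are assembled in the nucleolus. Polymerase I transcribes a long precursor RNA there, snoRNPs guide chemical modification of that precursor, and a succession of processing factors cuts and folds it into the RNAs of the small and large subunits. Growing and dividing cells make more ribosomes than resting ones, and the transcription factor MYC, which binds the E-box motif, is a known activator of many of these genes.

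The sequences below are shown because the E-box, CACGTG, is a feature of the promoters that the choice of genes did not use. Promoters were taken from RefSeq (GRCm38.p6), from 250 bases before to 50 bases after each start, and 38 of the 42 genes had an entry. Fbl, Rrp12, Bop1 and Npm1 had none. The 27025 genes with an entry held 32851 promoters, and a gene was counted if any of its promoters matched. The motif, which is its own reverse complement, lay in 9 of the 38 (23.7%). It lay in 8.09% of 27025 genes with a promoter of the same length, in 11.7% of 9765 tested genes, and in 17.2% of 93 other ribosome biogenesis genes. In 7 of the 38 (18.4%) it began within the 50 bases after the start, against 1.28% of all genes, 1.84% of tested genes and 7.53% of the other biogenesis genes. That window, and the choice to print these 7, were made after the matches were seen. The capitals mark the E-box in each 30-base window, printed on the gene's own strand.

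Pes1, chr11:3963965-3963994, plus strand: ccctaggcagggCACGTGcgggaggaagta

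Utp4, chr8:106893643-106893672, plus strand: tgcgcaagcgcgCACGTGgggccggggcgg

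Wdr43, chr17:71616220-71616249, plus strand: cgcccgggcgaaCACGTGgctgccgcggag

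Tsr1, chr11:74898092-74898121, plus strand: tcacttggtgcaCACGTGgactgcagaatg

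Ltv1, chr10:13193092-13193121, minus strand: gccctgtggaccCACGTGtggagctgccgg

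Utp20, chr10:88826765-88826794, minus strand: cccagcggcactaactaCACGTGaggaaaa

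Mybbp1a, chr11:72441347-72441376, plus strand: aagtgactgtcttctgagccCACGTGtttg

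The remaining matches lay before the start, in Nop2 and at 2 positions in Rrn3. A second motif, TGATGNAA, the composite element bound by C/EBP and ATF factors, was searched on both strands and found in 0 of the 38 promoters, against 2.65% of tested genes. A match is a description of letters in this window and not a measured binding site. Of the 7 genes printed, Mybbp1a was called higher in KO and the others were not, with values given under their roles below. Distances are from the RefSeq start, which can differ from the start of the GENCODE gene whose coordinates are given below. It does for Mybbp1a, Wdr43 and Ltv1.

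The comparison of KO with WT asks how transcripts of these genes differ after deletion of the complex III subunit. Of the 42 genes 4 rose in KO (Npm1, Noc2l, Fbl and Mybbp1a) and 0 fell (edgeR quasi-likelihood test, Benjamini-Hochberg adjustment over 12689 genes at 0.05). Of all genes tested, 2.25% were called higher and 1.39% lower. In 17 of the 42 every KO library lay above every WT library, a pattern held by 6.94% of all genes tested, and in 0 of the 42 every KO library lay below (4.67% of all genes). Likewise 17 had an unadjusted edgeR p under 0.05 with a higher KO level, against 8.69%. The fitted log2 fold change was above 0 for 41 of the 42, against 51.0% of all genes, and its median was 0.72 against 0.01. Because the 42 were chosen with earlier results of these data known, these shares describe the set and are not an independent test of it.

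The count of 4 was the same with RLE, upper-quartile or no size factors in place of TMM. Removing the trend of each library's log counts on length and GC content, as planned and first run, left 0 of the 42 called and 118 genes called in all. That fit also removed each library's mean log level and moved the median log2 fold change of all genes from 0.01 to -0.12. Under it the members' median was 0.54, or 0.66 above that of all genes, and 38 of the 42 were above 0. The log2 fold changes of the 4 genes were then 0.79 for Npm1, 1.46 for Noc2l, 1.20 for Fbl and 0.75 for Mybbp1a. Among versions added after this result was seen, those in which TMM kept the scale each called 5 of the 42. Those without the TMM scale, with other choices of transcript, called 0, 1 and 0.

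**Figure D1:**
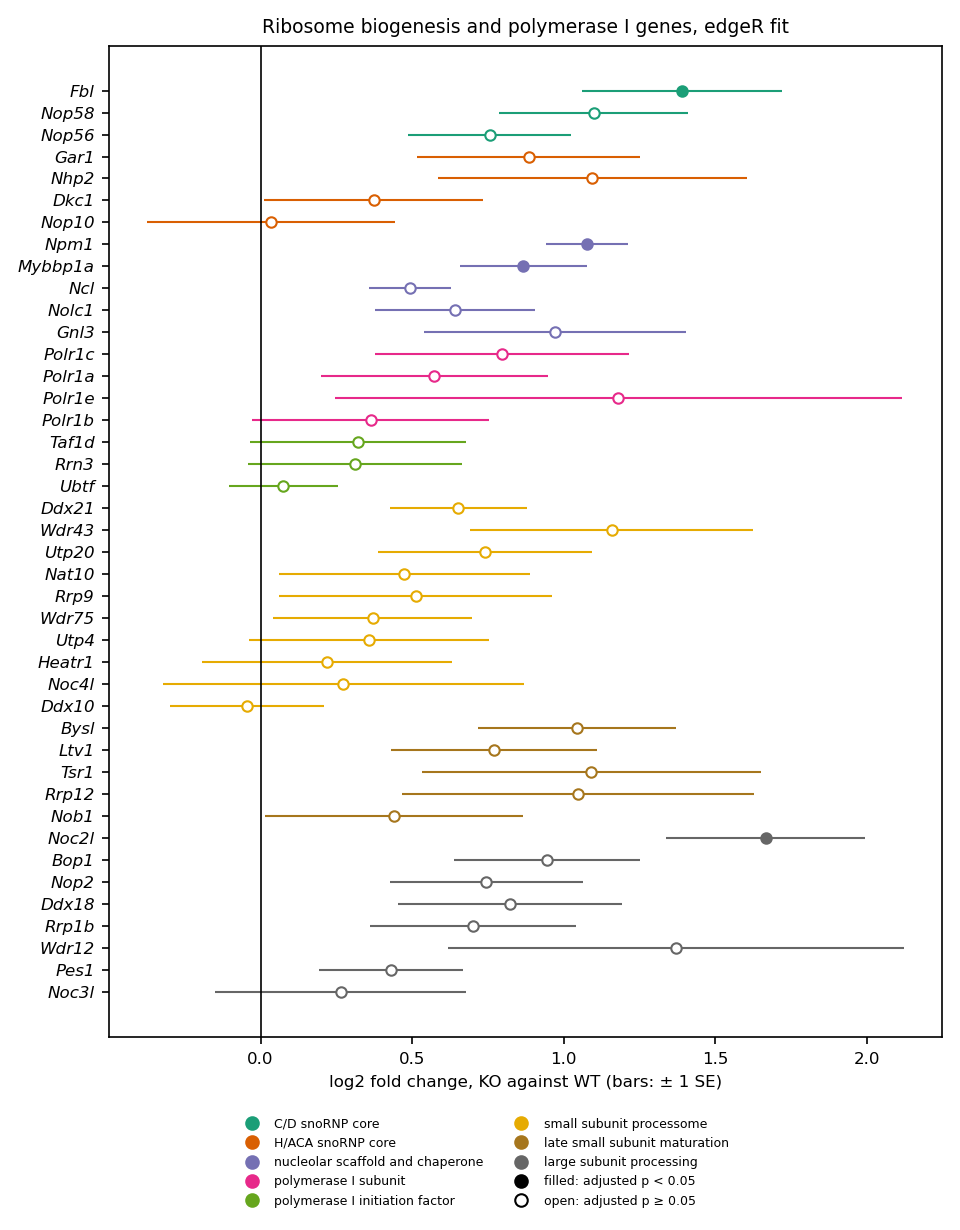
Fitted log2 fold change (KO against WT, x axis) of each of the 42 genes, grouped by role, with bars of 1 SE. All but Ddx10 lie to the right of 0, and the 4 called genes are Npm1, Noc2l, Fbl and Mybbp1a.

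Fibrillarin, Nop56, Nop58 and Snu13 form the core of the C/D snoRNPs, which methylate ribosomal RNA. The set holds Fbl, Nop56 and Nop58. Of these 3 genes 1 rose, and in all 3 the KO libraries lay above the WT libraries, with a median log2 fold change of 1.10. Snu13 is outside the set and was listed with the snoRNP assembly factors. Its groups overlapped (log2 fold change 0.21 (SE 0.22), edgeR adjusted p = 0.801). Fbl, which encodes the methyltransferase fibrillarin (chromosome 7, 28169710 to 28179269, plus strand, GRCm38), measured 30.2, 16.4, 10.5 and 20.7 CPM across WT replicates 1 to 4 and 36.6, 56.2, 49.8 and 61.7 CPM across KO replicates 1 to 4. The groups did not overlap, and WT replicate 3 was the lowest library (log2 fold change 1.39 (SE 0.33), adjusted p = 0.0256). Its call was lost on leaving out any of 6 libraries, with adjusted p values of 0.0783 without WT replicate 2, 0.0516 without WT replicate 3, 0.0635 without WT replicate 4, 0.0811 without KO replicate 2, 0.0696 without KO replicate 3 and 0.0890 without KO replicate 4. The range over all 27 alternatives was 0.00389 to 0.0890. Nop58, a scaffold of the same particle (chromosome 1, 59684971 to 59719044, plus strand), measured 47.2, 49.2, 16.1 and 48.4 CPM across WT replicates 1 to 4 and 61.0, 104, 77.2 and 103 CPM across KO replicates 1 to 4. WT replicate 3 lay far below the other WT libraries, and the KO libraries were all above WT (log2 fold change 1.10 (SE 0.31), adjusted p = 0.0654). Without WT replicate 3 its log2 fold change was 0.84 (adjusted p = 0.0774), and it passed without KO replicate 1 (0.0480) and without both of these (0.98, adjusted p = 0.0288). Over the 27 alternatives its adjusted p ran from 0.0139 to 0.177 and it passed in 5. Nop56, its partner scaffold, was 33.7 ± 11.3 CPM over the WT libraries and 57.0 ± 2.78 CPM over the KO libraries (SD, n = 4 each).

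The H/ACA snoRNPs convert uridine to pseudouridine, and their core is made of the synthase Dkc1 with Nop10, Nhp2 and Gar1. None of these 4 genes passed the test, and the groups were separate for 1 of them. Gar1 (chromosome 3, 129824912 to 129831396, minus strand) measured 22.6, 13.9, 15.4 and 13.9 CPM across WT replicates 1 to 4 and 21.2, 32.1, 20.8 and 47.4 CPM across KO replicates 1 to 4. KO replicates 1 and 3 lay below WT replicate 1, so the groups overlapped (log2 fold change 0.88 (SE 0.37), adjusted p = 0.249). Nhp2 (chromosome 11, 51619735 to 51623714, plus strand) measured 33.5, 13.8, 3.74 and 34.7 CPM across WT replicates 1 to 4 and 42.7, 57.7, 44.0 and 39.6 CPM across KO replicates 1 to 4. The lowest value was again in WT replicate 3, and each KO library was above each WT library (log2 fold change 1.09 (SE 0.51), adjusted p = 0.336). Without that library the log2 fold change was 0.75 (adjusted p = 0.301). Dkc1 had a log2 fold change of 0.37 (0.36) and Nop10 of 0.03 (0.41), where the bracket is the SE. The sign of Nop10 changed with the size factors, at -0.00402 with RLE factors and -0.024 with library totals only, so it has no direction here.

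Of the nucleolar scaffold and chaperone genes 2 of 5 rose, and in 5 of 5 every KO library lay above every WT library (median log2 fold change 0.87). Npm1 encodes nucleophosmin, an abundant histone and ribosome chaperone of the nucleolus (chromosome 11, 33152287 to 33163206, minus strand). It measured 238, 227, 188 and 200.04 CPM across WT replicates 1 to 4 and 393, 460.4, 445 and 499 CPM across KO replicates 1 to 4. The lowest KO library exceeded the highest WT library by a wide margin (log2 fold change 1.08 (SE 0.14), adjusted p = 0.000380). Npm1 stayed called on leaving out each of the 8 libraries in turn. Its adjusted p was 0.0702 under the planned removal of length and GC trends, and ran over the 27 alternatives from 1.25e-13 to 0.0702. Mybbp1a, which encodes a nucleolar MYB-binding protein (chromosome 11, 72441355 to 72451768, plus strand), measured 54.5, 70.4, 105 and 66.3 CPM across WT replicates 1 to 4 and 154, 146, 120.3 and 119.5 CPM across KO replicates 1 to 4. Here WT replicate 3 was the highest WT library, not the lowest, and the groups did not overlap (log2 fold change 0.87 (SE 0.21), adjusted p = 0.0290).

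The call of Mybbp1a was lost without WT replicate 1 (adjusted p = 0.0782), WT replicate 2 (0.0743), WT replicate 4 (0.0901), KO replicate 1 (0.0678), KO replicate 2 (0.0881) and KO replicate 3 (0.0561). Under the planned removal of length and GC trends its adjusted p was 0.255, and that of Fbl 0.0759. Exons of 17 of the 42 overlap those of a gene on the opposite strand. Whether the counting used strand is not stated in these sources. Reads of the partners may therefore be included, or reads in the overlaps left out. Among the genes given library by library these are Mybbp1a (with Spns2), Noc2l (Samd11), Nhp2 (Rmnd5b), Bop1 (Mroh1), Bysl (Ccnd3), Wdr43, Polr1a and Taf1d. Ncl, which encodes nucleolin and had the highest mean counts of the 42, was 325 to 423 CPM in WT and 470 to 576 CPM in KO (log2 fold change 0.49 (SE 0.13), adjusted p = 0.0532). It passed in 9 of the 27 alternatives, among them DESeq2, limma voom and leaving out WT replicate 2 (adjusted p = 0.0291), and its adjusted p ran from 0.00661 to 0.410. Nolc1, a snoRNP chaperone, had a log2 fold change of 0.64 (0.26), and Gnl3, which encodes the GTP-binding protein nucleostemin, 0.97 (0.43). Per kilobase of transcript, Npm1 had the highest WT and KO level of the 42 under each of 4 definitions of transcript length. Ncl was next in WT under all 4, and in KO under 3.

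**Figure D2:**
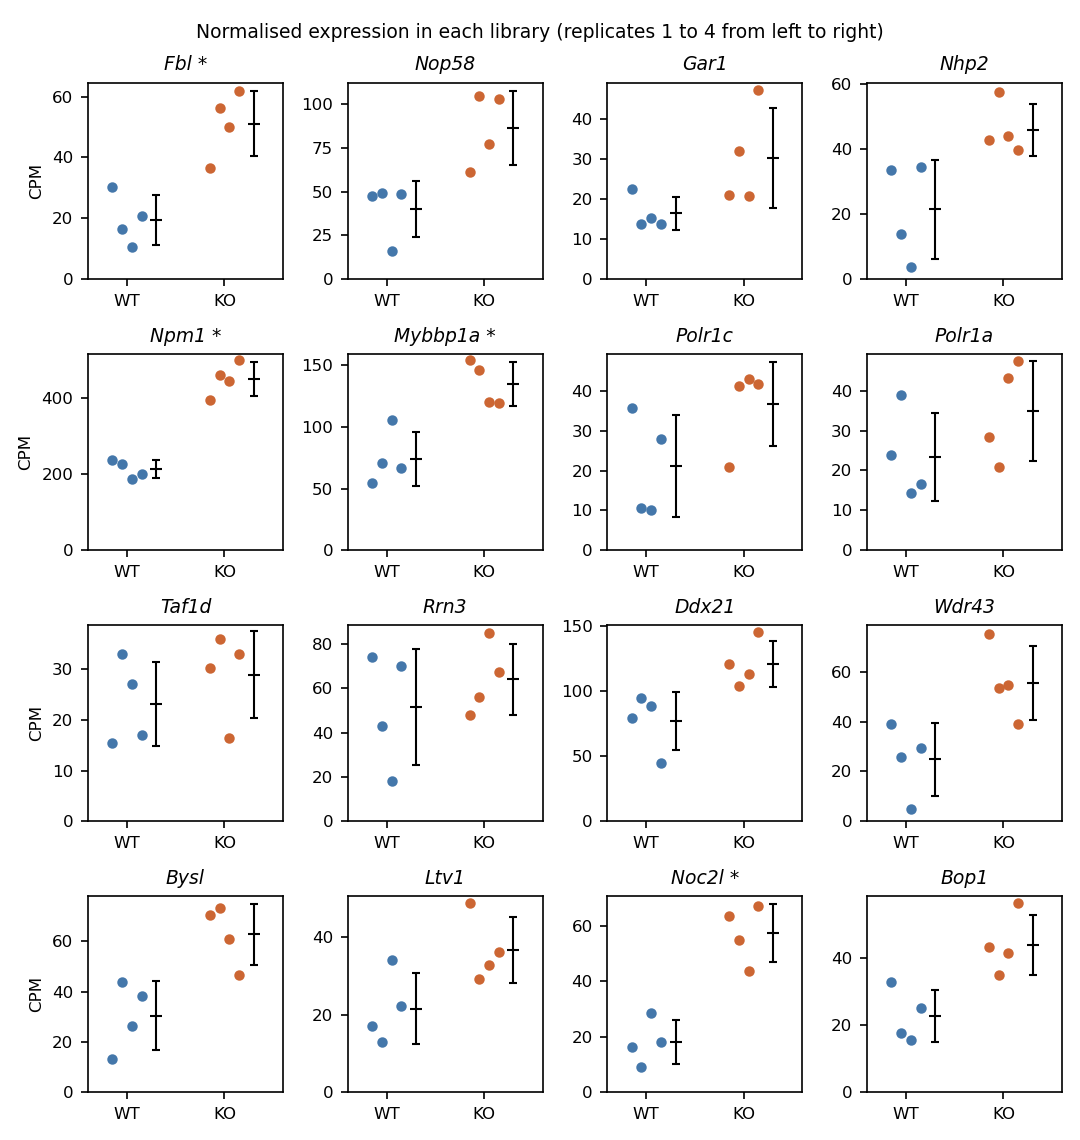
Normalised expression (CPM, y axis from 0) of the 16 genes described library by library, with WT and KO replicates 1 to 4 from left to right and an asterisk on the 4 called genes. The KO points of Npm1, at 393 to 499 CPM, sit clear of the WT points at 188 to 238 CPM, while those of Rrn3 and Taf1d overlap WT.

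Polymerase I transcribes the ribosomal RNA genes. Of its 4 subunit genes 0 passed the test and 0 had separate groups, with a median log2 fold change of 0.68. Polr1c, a subunit shared with polymerase III (chromosome 17, 46243920 to 46248054, minus strand), measured 35.8, 10.5, 10.2 and 27.8 CPM across WT replicates 1 to 4 and 20.8, 41.3, 43.0 and 41.7 CPM across KO replicates 1 to 4. KO replicate 1 fell within the WT range, and the other KO libraries lay above it (log2 fold change 0.80 (SE 0.42), adjusted p = 0.405). Without KO replicate 1 the log2 fold change was 0.99 (adjusted p = 0.272). Polr1a, the largest subunit (chromosome 6, 71909053 to 71984935, plus strand), measured 24.0, 38.9, 14.4 and 16.5 CPM across WT replicates 1 to 4 and 28.3, 20.8, 43.3 and 47.4 CPM across KO replicates 1 to 4. KO replicates 1 and 2 lay below WT replicate 2 (log2 fold change 0.57 (SE 0.37), adjusted p = 0.561). Polr1b, the second-largest subunit, had a log2 fold change of 0.36 (0.39). Polr1e was low throughout, at 0 counts in WT replicate 3, where 3 counts correspond to 0.448 CPM, and at 4.40 to 10.5 CPM in the other WT libraries against 7.31 to 18.4 CPM in KO.

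Initiation factors load polymerase I on the ribosomal DNA promoter, and 0 of 3 passed the test (median log2 fold change 0.31). Taf1d, part of the promoter selectivity factor (chromosome 9, 15306214 to 15316991, plus strand), measured 15.5, 33.0, 27.2 and 17.0 CPM across WT replicates 1 to 4 and 30.3, 36.0, 16.5 and 32.9 CPM across KO replicates 1 to 4. The groups overlapped across most of their range (log2 fold change 0.32 (SE 0.36), adjusted p = 0.810). Rrn3, also called TIF-IA, which makes the polymerase competent to start (chromosome 16, 13780708 to 13814839, plus strand), measured 74.4, 43.1, 18.2 and 70.2 CPM across WT replicates 1 to 4 and 48.1, 56.0, 85.1 and 67.2 CPM across KO replicates 1 to 4. WT replicate 3 was the lowest library, and WT replicate 1 was above 3 of the KO libraries (log2 fold change 0.31 (SE 0.35), adjusted p = 0.814). Without WT replicate 3 the log2 fold change was 0.038 (adjusted p = 0.983). Ubtf, which encodes the upstream binding factor, was 173 ± 49.6 CPM over the WT libraries and 183 ± 7.48 CPM over the KO libraries (SD, n = 4 each), with a log2 fold change of 0.08 (0.18) that turned to -0.027 without WT replicate 3.

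The small subunit processome assembles on the nascent precursor, and 0 of its 10 genes here passed the test (median log2 fold change 0.42). Ddx21, an RNA helicase of the nucleolus (chromosome 10, 62580251 to 62602281, minus strand), measured 78.8, 94.8, 88.6 and 44.5 CPM across WT replicates 1 to 4 and 120.3, 104, 113 and 145 CPM across KO replicates 1 to 4. All KO libraries were above all WT libraries, the only separation in this group (log2 fold change 0.65 (SE 0.23), adjusted p = 0.140). Wdr43, a processome subunit (chromosome 17, 71615895 to 71659031, plus strand), measured 39.06, 25.9, 4.78 and 29.6 CPM across WT replicates 1 to 4 and 75.2, 53.5, 54.8 and 39.03 CPM across KO replicates 1 to 4. KO replicate 4 and WT replicate 1 were level, and WT replicate 3 was far below the rest (log2 fold change 1.16 (SE 0.47), adjusted p = 0.244). Without it the log2 fold change was 0.82 (adjusted p = 0.155). The other 8 ran from -0.04 (0.25) for the helicase Ddx10 to 0.74 (0.35) for the large scaffold protein Utp20. Nat10, the acetyltransferase of small subunit RNA, had 0.47 (0.41) and Rrp9, a protein of the U3 snoRNP, 0.51 (0.45). Utp4, a processome subunit, had 0.36 (0.40) and an adjusted p of 0.810.

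Late small subunit maturation takes place partly in the cytoplasm, and 0 of 5 of its genes passed, though their median log2 fold change was 1.04. Bysl, which encodes bystin (chromosome 17, 47599331 to 47611492, minus strand), measured 13.1, 44.0, 26.2 and 38.3 CPM across WT replicates 1 to 4 and 70.3, 73.0, 60.9 and 46.5 CPM across KO replicates 1 to 4. KO replicate 4, the lowest KO library, was close above WT replicate 2 (log2 fold change 1.04 (SE 0.33), adjusted p = 0.0968). Ltv1, an assembly factor that leaves the particle late (chromosome 10, 13178140 to 13193168, minus strand), measured 17.2, 12.9, 34.1 and 22.2 CPM across WT replicates 1 to 4 and 48.8, 29.2, 33.0 and 36.1 CPM across KO replicates 1 to 4. WT replicate 3, at 34.1 CPM, lay among the KO libraries (log2 fold change 0.77 (SE 0.34), adjusted p = 0.281). Tsr1 had a log2 fold change of 1.09 (0.56) and Rrp12, an export factor, 1.05 (0.58). Nob1, the endonuclease that makes the mature end of 18S RNA, had 0.44 (0.42).

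Of the 8 large subunit genes 1 rose and 5 had separate groups, with a median log2 fold change of 0.78. Noc2l, which encodes a nucleolar complex protein (chromosome 4, 156236010 to 156247616, plus strand), measured 16.5, 9.32, 28.6 and 18.1 CPM across WT replicates 1 to 4 and 63.4, 54.7, 43.8 and 67.0 CPM across KO replicates 1 to 4. It had the largest fold change of the 42, and its groups did not overlap (log2 fold change 1.67 (SE 0.33), adjusted p = 0.00800). Noc2l stayed called on leaving out each of the 8 libraries in turn. Its adjusted p was 0.0810 under the planned removal of length and GC trends, and ran over the 27 alternatives from 0.000255 to 0.0810. Bop1, which forms the PeBoW complex with Pes1 and Wdr12 (chromosome 15, 76452989 to 76477277, minus strand), measured 32.7, 17.6, 15.7 and 24.9 CPM across WT replicates 1 to 4 and 43.1, 34.9, 41.3 and 56.1 CPM across KO replicates 1 to 4. KO replicate 2 was close above WT replicate 1 and the groups did not overlap (log2 fold change 0.94 (SE 0.31), adjusted p = 0.110). Pes1 had a log2 fold change of 0.43 (0.24) and Wdr12 of 1.37 (0.75), the latter with WT replicate 3 at 0.149 CPM and a log2 fold change of 0.97 (adjusted p = 0.328) without it. Among the others, the RNA methyltransferase Nop2 had 0.74 (0.32), the helicase Ddx18 0.82 (0.37), Rrp1b 0.70 (0.34) and Noc3l 0.26 (0.41).

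**Figure D3:**
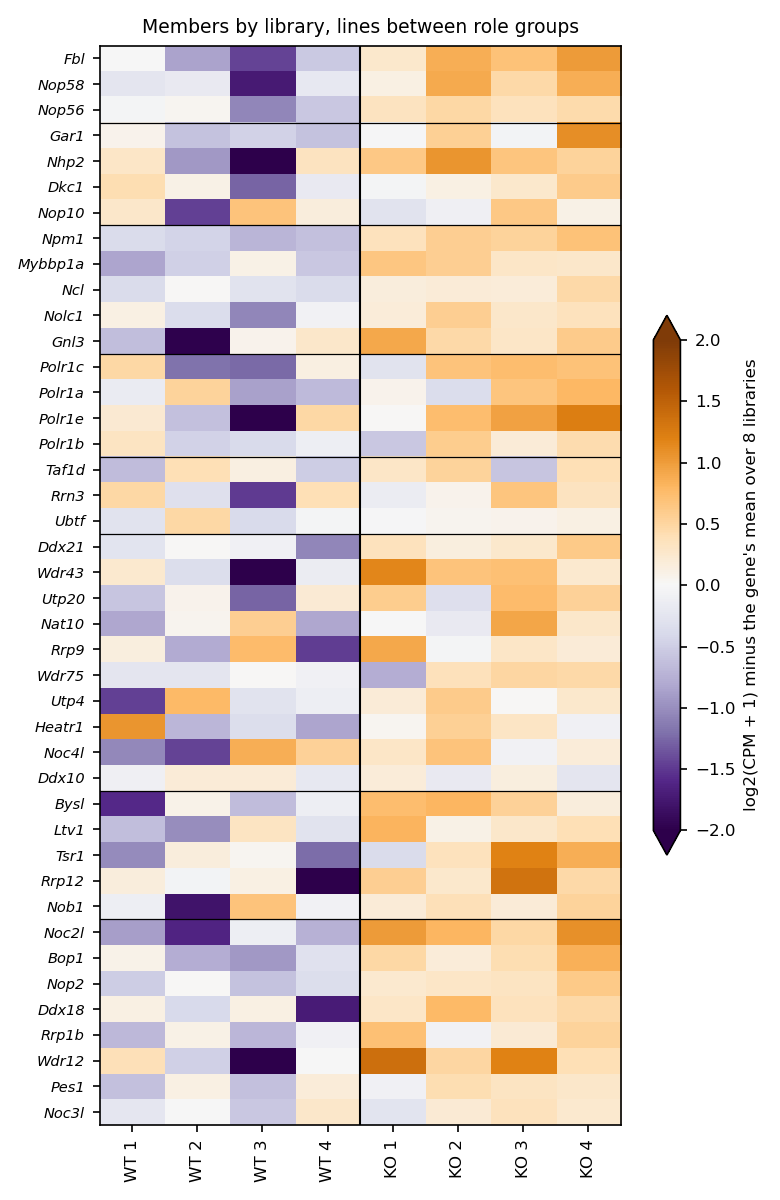
Level of each gene in each library, as log2(CPM + 1) minus the gene's mean over the 8 libraries (colour), with lines between role groups. The KO columns are mostly above the mean, and WT replicate 3 is the lowest of the 8 libraries for 20 of the 42 genes.

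Summed over the 42 genes, expression was 1807, 1927, 1618 and 1722 CPM across WT replicates 1 to 4 and 2624, 2802, 2788 and 3019.6 CPM across KO replicates 1 to 4. Averages were 1768 ± 131 CPM and 2808 ± 163 CPM (SD, n = 4 each), a ratio of 1.59, and without Ncl and Npm1 the ratio was 1.55. Every KO sum exceeded every WT sum. In bulk samples, a change in the number of cells of a type and a change in RNA per cell cannot be told apart.

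Relative to their mean level, the 42 genes varied more between WT libraries than between KO libraries. Mean levels, by which the SD is divided here, were mostly lower in WT. The SD in CPM was larger in KO for some genes, Npm1 and Ncl among them, and larger in WT for others, such as Ubtf and Rrn3. The median coefficient of variation was 43.5% in WT and 21.0% in KO, and it was larger in WT for 38 of 42 (90.5%), against 62.3% of all genes with a value. Without WT replicate 3 and KO replicate 1 the medians were 30.8% and 17.9%, and 36 of 42 (85.7%) were more variable in WT, against 65.3%. Leaving out both libraries gave 5 genes called and a median log2 fold change of 0.73.

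Host genes of snoRNAs were common in the set. The annotation places 29 snoRNA genes inside 8 of the 42 (19.0%), against 1.86% of 12634 tested genes with a position. The hosts are Nop58, Nop56, Ncl, Dkc1, Taf1d, Tsr1, Wdr43 and Gnl3. Their median log2 fold change was 0.86, against 0.68 for the other 34 and 0.26 for all host genes tested, and 0 of the 8 passed the test. Of the 29 snoRNA genes 10 had counts, at most 72 summed over them in a library, and 0 passed the filter, so they were not tested. Exons of 5 hosts (Nop58, Nop56, Ncl, Gnl3 and Taf1d) overlap another gene on the same strand.

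Other ribosome biogenesis genes were taken from 4 pathway lists. Of 114 tested 0 passed the test in either direction, 17 had an unadjusted edgeR p under 0.05 with a higher KO level and 0 with a lower one, and the median log2 fold change was 0.36. DESeq2 called 4 of them and limma voom 0. The smallest p among small subunit factors was that of Rrp7a (log2 fold change 0.95, SE 0.28, adjusted p = 0.0814) and among large subunit factors that of Nsa2 (0.52, SE 0.16, adjusted p = 0.0888). The snoRNP assembly factors had a median of 0.24, with the ATPase Ruvbl2 at 0.51 (SE 0.21). The remaining polymerase I genes had a median of -0.07, with the termination factor Ttf1 at -0.74 (SE 0.57).

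Genes of neighbouring machines were compared with the same fit. In the RNA exosome, which trims precursor RNA, 0 of 13 passed and the median log2 fold change was 0.20, with the helicase Mtrex at 0.51 (SE 0.21). Polymerase III genes had a median of -0.01 over 20 tested, with Gtf3c6 at 1.18 (SE 0.49). Polymerase II subunits had a median of 0.27 over 7, with Polr2j at -0.75 (SE 0.37), and the subunits shared by the polymerases 0.29 over 5, with Polr2f at 0.45 (SE 0.33). None of these lists held a called gene. At an unadjusted edgeR p under 0.05, 3 exosome genes and 1 polymerase III gene were higher and 0 of the other 2 lists. Differences between the lists and the 42 genes were not tested.

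**Figure D4:**
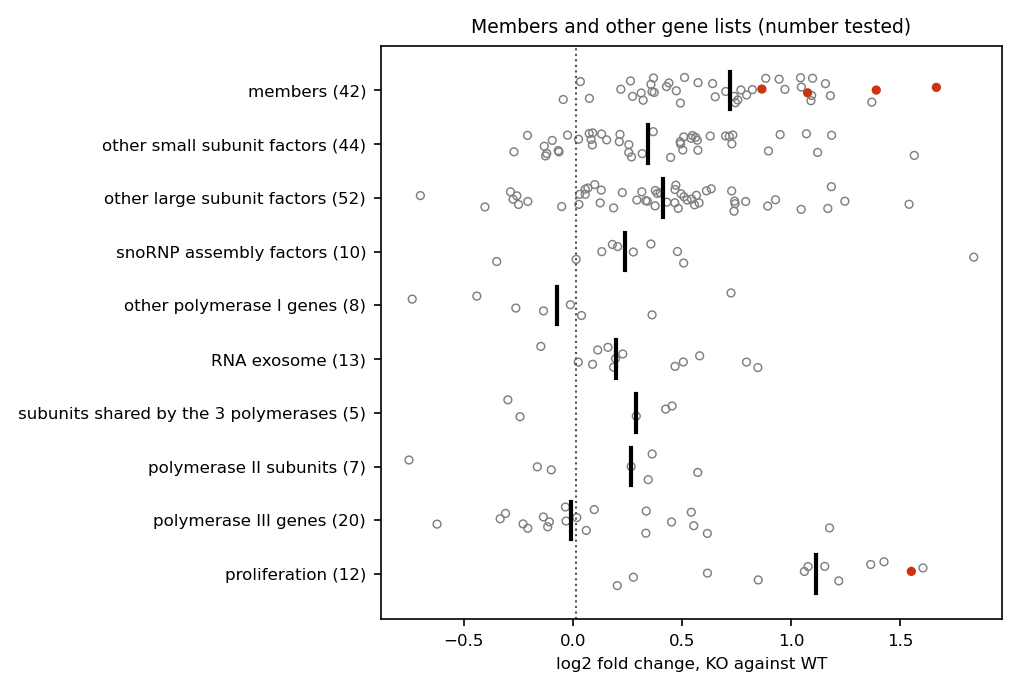
Log2 fold change (KO against WT, x axis) of single genes in the 42-gene set and in the other lists, with the number tested in brackets, filled points for called genes, vertical bars for medians and a dotted line at the median of all genes. The 42 genes have a median of 0.72, the medians of the other ribosome biogenesis lists lie between -0.07 and 0.42, and that of the proliferation list is 1.12.

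Proliferation markers moved with the same groups. Their 12 genes summed to 355 to 618 CPM in WT and 513 to 1292 CPM in KO, ranges that overlap. All 12 had a log2 fold change above 0 with a median of 1.12, 9 had an unadjusted edgeR p under 0.05, and 1 rose, the mitotic kinase Plk1 (1.55, SE 0.36, adjusted p = 0.0217). Their part in the result was not tested. Markers of other lung cells overlapped between the groups: alveolar type 2 genes summed to 3728 to 21630 CPM in WT and 3596 to 15758 CPM in KO, leukocyte genes to 415 to 2003 and 395 to 1484 CPM with Ly6g at 0 in all 8 libraries, and fibroblast genes to 270 to 1322 and 255 to 1273 CPM. Their part was not tested either.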

How the data were processed

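Per the submitters' processing notes, reads were processed with bcl2fastq, TopHat, HTSeq and edgeR on mm10. Versions, annotation release, strand use and filters were not given in the sources used here. The authors deposited raw read counts per gene, 1 column per library, and 0 value columns were left over. The 42 genes and all lists were chosen with earlier results of these data known. Symbols, positions and transcript lengths came from GENCODE vM21 (GRCm38). 42462 of 43430 IDs had a symbol, and the list symbols Riok2, Exosc6 and Gtf3c2 were not analysed here.

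Genes with low counts were removed by filterByExpr (count of 10, total of 15) and TMM set the scale. The genotype effect was tested in edgeR 4.0.16 (R 4.3.3) with its quasi-likelihood F test (robust, no other term), adjusted by Benjamini-Hochberg over all 12689 genes at 0.05. Each SE is the fold change over the root of F. Biological variation (common coefficient) was 63.5%. Reads carry no molecular identifiers, so the floor of 3 counts covers counting error only. The scripts were tested on simulated data.

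Named were the 2 genes of each role with the smallest p, with every library's value, and in each other list up to 3 called genes or, with none, the gene of smallest p. Others are named from the membership, and Snu13 as a further C/D core protein.

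Alternatives were RLE, upper-quartile or no size factors, no or a stricter filter (5 CPM in 4 libraries), DESeq2 1.42.0, limma voom 3.58.1, edgeR's legacy = FALSE, the replicate block, removal of mitochondrial and haemoglobin genes, length and GC trends (mgcv 1.9.3), and leaving out libraries.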

Additional observations from a re-analysis of the deposited data

Results flagged for a closer look

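Single libraries stood far from the other 3 of their group for 6 gene and group pairs of 88 examined by Dixon's gap test. Chance flags about 1 in 20 groups. In WT, Nop58 was 16.1 CPM in replicate 3 against 47.2 to 49.2 CPM in the others. Rrp12 was 1.32 CPM in WT replicate 4 against 15.0 to 17.7 CPM, and Heatr1 was 52.4 CPM in WT replicate 1 against 13.4 to 19.4 CPM. In KO, Ncl was 576 CPM in replicate 4 against 470 to 484 CPM. KO replicate 1 was low for Polr1c, at 20.8 CPM against 41.3 to 43.0 CPM, and for Wdr75, at 15.4 CPM against 34.9 to 38.3 CPM.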

How the results depend on the processing

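RLE, upper-quartile and no size factors each called 4 of the 42. The calls of Fbl and Mybbp1a were lost without single libraries. The removal of length and GC trends was run in 8 versions. The first, with a gene's longest transcript, was the planned one, and the other 7 were chosen after seeing the data and the result of that first version. They differ in the transcript used (longest, longest coding, median coding, principal) and in whether TMM keeps the scale. Without the TMM scale the 4 versions called 0, 0, 1 and 0 of the 42 (118, 118, 121 and 117 of all genes), with members' medians of 0.54, 0.54, 0.55 and 0.56. With it, each of the 4 called 5, and 446 to 461 of all genes. No version is preferred here.

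Without a filter 7 of the 42 were called, and 7 with legacy = FALSE, which called 746 of all genes; DESeq2 called 863. Of the other biogenesis genes DESeq2 called 4, no filter 1, and leaving out both WT replicate 3 and KO replicate 1 called 1. Leaving out each library in turn called 2 to 4 of the 42 (2 without WT replicate 4, KO replicate 2 or KO replicate 3), 0 to 2 other biogenesis genes and 270 to 446 of all genes (270 without KO replicate 3). The members' median stayed between 0.63 and 0.79. Over all 27 alternatives 0 of the 42 were called lower and 38 to 42 were above 0.

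Signs turned for genes near 0. Nop10 was -0.00402 with RLE factors, -0.024 with totals only and -0.0053 with DESeq2. In the order of transcripts above it was -0.42, -0.40, -0.29 and -0.39 without the TMM scale and -0.19, -0.17, -0.069 and -0.16 with it. Also without the TMM scale, Ubtf was -0.0081 (longest) and -0.011 (median coding), Noc4l -0.076, -0.068 and -0.050 (longest, longest coding, principal), Taf1d -0.026 and -0.016 (longest coding, principal) and Wdr75 -0.019 (median coding). Ddx10 was 0.060 with the median coding transcript and TMM. Leaving out each library in turn, Nop10 ran from -0.26 to 0.30 (below 0 without WT replicate 2 or KO replicate 3), Ubtf from -0.027 to 0.29 (below 0 without WT replicate 3), Noc4l from -0.027 to 0.73 (below 0 without WT replicate 2) and Ddx10 from -0.12 to 0.018 (above 0 with replicate 2 or 3 of WT, or 2 or 4 of KO, left out). The causes were not tested.

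Same-numbered samples did not deviate together (correlations -0.10 to 0.00442), so the numbers were not taken to pair the samples; a replicate block called 3 of the 42 (not Mybbp1a, adjusted p = 0.0589) and 338 of all genes. The common variation over all genes was 63.5%, with 4 libraries a group, and small differences in low genes may have gone undetected.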
